A study of Mus musculus with 8 samples.

Results

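The oxidative phosphorylation subunits covered here are nuclear-encoded proteins of the mitochondrial electron transport chain and of ATP synthase. Their genes were taken here by platform annotation symbol: those beginning with Ndufa, Ndufb, Ndufc, Ndufs or Ndufv for complex I, the 4 Sdh genes for complex II, Cyc1 and those beginning with Uqcr for complex III, those beginning with Cox4i, Cox5, Cox6, Cox7 or Cox8 for complex IV, those beginning with Atp5 for complex V, and Cycs for cytochrome c. The 8 Ndufaf assembly factors and 1 pseudogene, Ndufs5-ps, were left out. This gave 80 genes with 125 probes, of 19057 genes named on the array.

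Complex I takes electrons from NADH and complex II takes them from succinate, and both pass them through ubiquinone to complex III, from which cytochrome c carries them to complex IV and oxygen. Complexes I, III and IV pump protons as they do so, and complex V lets the protons back in to make ATP. In macrophages the balance between this pathway and glycolysis is known to shift with activation: alternatively activated cells respire, whereas cells activated by bacterial products reduce respiration.

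Gene expression was measured on 8 Illumina beadchip arrays of macrophages from mouse bone marrow, with 4 libraries labelled wild type (WT 1 to 4, titled control) and 4 labelled vav1-/- (here KO 1 to 4, titled VAV ko). All are labelled strain C57BL/6, from male and female mice of 7 to 12 weeks, with no stimulus named. Vav1 is a signalling protein found in cells of the blood lineages, and the comparison asks how its loss changes macrophage expression. The sources used here do not say how the allele was made, how the macrophages were cultured or whether each library is a separate animal. The spread behind each p-value is therefore that of these 8 libraries and could be technical.

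Some facts of the series bear on every value below. The Vav1 probe read 1642 to 1825 in WT 1, WT 2, KO 1 and KO 2, whereas the remaining 4 libraries read 267 to 384, so 4 of the labels are at odds with the level of the targeted gene, and directions are given as the libraries labelled KO against the libraries labelled WT. No source used here says whether that probe lies within the part of the gene that the allele alters. Library WT 4 stood apart: it correlated with the others at 0.839 to 0.901, and they with each other at 0.971 to 0.996. Of 11 macrophage markers on the array 11 were above the intensity minimum of 100 on at least 4 arrays, with Lyz1, a lysozyme, at 13137 to 25341 and Sirpa, an inhibitory receptor, at 14096 to 17922. None of the markers of T and NK cells (7 on the array), dendritic cells (7) or stromal cells (8) was above it, and 2 of 9 neutrophil markers were, S100a8 and S100a9, at no more than 255. The B cell list had 2 of 5, Blnk at up to 517 and Cd22 at up to 160, with 86.7 for Blnk in WT 4. The erythroid and megakaryocyte list had 2 of 7, of which the platelet chemokine gene Pf4 read 3485 to 7143, highest in WT 4, and Epor at most 109. The summed intensity of the macrophage markers was 67639 to 82773 in the libraries labelled WT, highest in WT 4, and 70763 to 75609 in those labelled KO. The list did not move as 1 in WT 4: Lyz1, Lyz2 and Adgre1 were highest there, while Csf1r read 2051 against 2748 to 5218, Cd14 337 against 578 to 1218 and Tyrobp 2377 against 3861 to 4824. The median log2 distance of the 11 from the other libraries was -0.12, and 2 were over 2-fold lower. In such bulk RNA, a change in the share of a cell type and a change in RNA per cell cannot be told apart.

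Promoters of these genes are known to bind NRF1, GABPA (also called NRF2) and YY1, factors that couple nuclear genes to mitochondrial content. RefSeq start sites of build GRCm38.p6 were matched for 66 of the 80 genes, each with a window of 300 bases, and searched on both strands. The NRF1 core, GCGC and TGCGC with 1 base of any kind between them, was in 16 of the 66 genes (24.2%) and in 5.19% of all 27025 genes with such a window. The GABPA core CCGGAAG was in 16 of 66 (24.2%) against 9.93%, and the YY1 core AANATGGCG in 10 of 66 (15.2%) against 2.76%. The Sp1 core GGGCGG was in 30 of 66 (45.5%) against 38.2%, and TATAAA in 8 of 66 (12.1%) against 15.7%. A match is a run of letters and not a measured site, and genes without a match may still bind the factor.

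The 250 bases before the start site are shown for 7 of the genes, with matches to the NRF1, GABPA and YY1 cores in capitals. Cox6a1, Ndufb4, Sdhd and Atp5h are shown because they hold NRF1 matches and vary in different ways in the results below. Ndufc2 is shown because it lay farthest from the other libraries in WT 4, and Ndufa7 and Ndufa12 because their values parted by the number of the library, for Ndufa12 only without WT 4. The YY1 core had no match in these 7 stretches, although a second Ndufa7 start site in the table has one.
Cox6a1 (chr5:115348959-115349208, minus strand): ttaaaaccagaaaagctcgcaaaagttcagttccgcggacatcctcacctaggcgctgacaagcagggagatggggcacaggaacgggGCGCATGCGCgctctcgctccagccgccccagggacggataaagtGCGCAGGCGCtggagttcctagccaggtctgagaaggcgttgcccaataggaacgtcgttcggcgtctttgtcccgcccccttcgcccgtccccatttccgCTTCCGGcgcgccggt
Ndufb4 (chr16:37654369-37654618, minus strand): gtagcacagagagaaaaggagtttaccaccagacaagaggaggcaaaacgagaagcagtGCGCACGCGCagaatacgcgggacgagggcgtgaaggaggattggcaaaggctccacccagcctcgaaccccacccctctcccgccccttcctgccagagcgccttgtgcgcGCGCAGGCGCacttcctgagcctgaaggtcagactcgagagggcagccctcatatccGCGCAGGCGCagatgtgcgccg
Sdhd (chr9:50603850-50604099, minus strand): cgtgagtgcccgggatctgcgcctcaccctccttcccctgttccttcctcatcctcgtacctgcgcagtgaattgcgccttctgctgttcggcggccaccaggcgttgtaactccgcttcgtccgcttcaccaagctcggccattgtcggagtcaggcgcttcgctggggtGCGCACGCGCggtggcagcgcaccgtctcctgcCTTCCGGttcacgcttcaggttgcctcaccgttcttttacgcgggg
Atp5h (chr11:115419920-115420169, minus strand): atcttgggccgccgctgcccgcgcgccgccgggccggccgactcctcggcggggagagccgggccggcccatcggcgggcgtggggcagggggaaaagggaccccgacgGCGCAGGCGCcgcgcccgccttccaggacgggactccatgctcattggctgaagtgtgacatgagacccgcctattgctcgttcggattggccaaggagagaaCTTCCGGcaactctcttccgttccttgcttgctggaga
Ndufc2 (chr7:97399753-97400002, plus strand): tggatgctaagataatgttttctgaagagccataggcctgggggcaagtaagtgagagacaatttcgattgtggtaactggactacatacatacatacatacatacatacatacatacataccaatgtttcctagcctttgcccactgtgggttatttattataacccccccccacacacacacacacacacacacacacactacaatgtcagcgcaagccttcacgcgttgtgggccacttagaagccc
Ndufa7 (chr17:33824322-33824571, plus strand): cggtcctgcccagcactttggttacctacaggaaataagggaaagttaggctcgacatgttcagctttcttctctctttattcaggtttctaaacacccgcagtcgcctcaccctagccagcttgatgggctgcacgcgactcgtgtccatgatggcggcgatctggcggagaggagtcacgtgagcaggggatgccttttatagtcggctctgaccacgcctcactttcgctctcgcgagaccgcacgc
Ndufa12 (chr10:94198785-94199034, plus strand): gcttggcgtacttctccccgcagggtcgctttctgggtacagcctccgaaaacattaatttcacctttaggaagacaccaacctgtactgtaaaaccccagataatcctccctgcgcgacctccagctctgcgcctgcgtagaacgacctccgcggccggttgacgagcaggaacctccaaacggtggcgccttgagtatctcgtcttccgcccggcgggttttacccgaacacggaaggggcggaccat
Cox6a1 has NRF1 matches that begin 162 and 117 bases before the start site and a GABPA match that begins 16 bases before it. Ndufb4 has 3 NRF1 matches, which begin 191, 79 and 22 bases before the start. Sdhd has an NRF1 match at 79 and a GABPA match at 46 bases, and Atp5h has them at 141 and 38 bases. The stretches of Ndufc2, Ndufa7 and Ndufa12 have no match.

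Of the 80 genes, 71 had at least 1 probe above the intensity minimum, 99 probes in all, and 33 of the 71 read 1000 or more in every library. By complex these were 33 of 35 genes for complex I, 3 of 4 for complex II, 7 of 8 for complex III, 11 of 16 for complex IV, 16 of 16 for complex V, and Cycs. Intensities of different probes are not comparable, so each gene is compared only with itself across libraries. Deposited intensities are given for single libraries, and fold changes are on a background-corrected log2 scale.

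Among the 9 genes below the minimum, 4 encode subunits that every cell's chain contains. Sdha, the flavoprotein subunit of complex II, read 80.9 to 99.0 on its 1 probe. Uqcrfs1, the Rieske iron-sulphur protein of complex III, read at most 92.5 on either of its 2 probes. Ndufs1, the largest core subunit of complex I, read 71.9 to 82.9, and the accessory subunit gene Ndufb11 at most 103. The median reading of all probes was 86.2, so these probes gave no level above the bulk of the array, and whether the transcripts were low or the probes weak cannot be told apart.

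The other 5 genes below the minimum are isoforms of complex IV that are known for restricted expression. Cox4i2, the lung and hypoxia isoform of subunit IV, read 75.3 to 86.1. Cox8b, a heart and muscle isoform, read 78.9 to 95.1, and Cox6b2, a testis isoform, read at most 90.7 on either probe. Cox7b2 read 80.8 to 93.8 and Cox8c, another testis isoform, 76.3 to 104. The widely expressed counterparts were read: Cox4i1 at 6219 to 6802, Cox6b1 at 2760 to 4858 and Cox7b at 283 to 632. The muscle isoforms Cox6a2 (142 to 255) and Cox7a1 (157 to 205) were above the minimum but near it, and both were highest in WT 4. Without WT 4, Cox6a2 read at most 175. Cox6a1 read 846 to 2355 and Cox7a2 468 to 1039. Cox8a, Ndufa4l2 and Atp5g1 are not analysed here. Of the c-ring genes, Atp5g2 read 740 to 1040 and Atp5g3 8992 to 13432. Ndufa4, now assigned to complex IV, read 2748 to 4220.

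**Figure D1:**
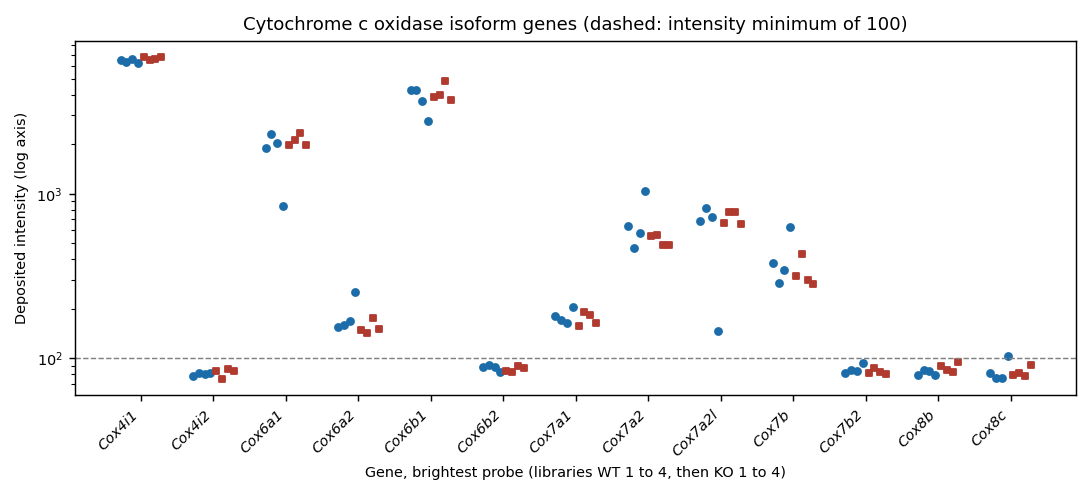
Deposited intensity (log axis) of the brightest probe of 13 complex IV isoform genes in each library, circles for the libraries labelled WT and squares for those labelled KO, with the intensity minimum of 100 dashed. Cox4i2, Cox6b2, Cox7b2, Cox8b and Cox8c lie at or near the dashed line, and levels of different genes come from different probes and are not to scale with each other.

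The genes read brightest in each complex differed in how steady they were. Cox4i1, the common isoform of subunit IV, read 6533, 6303, 6575 and 6219 in WT 1 to 4 and 6742, 6489, 6575 and 6802 in KO 1 to 4. This was the narrowest range of the 71 genes, with the highest value 1.09 times the lowest. Atp5b, the catalytic beta subunit of ATP synthase, read 7869 ± 809 (SD, n = 4) in the libraries labelled WT and 7744 ± 817 (SD, n = 4) in those labelled KO. Ndufa13, a complex I subunit also known as GRIM-19, read 7196 ± 331 (SD, n = 4) and 7499 ± 833 (SD, n = 4), and Ndufb8, of its membrane arm, 5496 ± 342 (SD, n = 4) and 5339 ± 462 (SD, n = 4). Uqcr10, a small complex III subunit, read 4939 ± 567 (SD, n = 4) and 4843 ± 595 (SD, n = 4), Uqcr11 2326 ± 395 (SD, n = 4) and 2288 ± 264 (SD, n = 4), and Cox5a 5068 ± 832 (SD, n = 4) and 5507 ± 502 (SD, n = 4). For each of these genes the means of the labels lay within 1 SD of each other, except Cox4i1 at 6407 ± 173 (SD, n = 4) and 6652 ± 145 (SD, n = 4), where the labels still overlapped. Others of this group ranged more widely: Cycs from 1202 to 2223, Sdhb from 502 to 929, Cox5a from 3873 to 6252, Atp5g3 from 8992 to 13432 and Sdhc from 1249 to 1830. WT 4 held the highest value of Cycs, Atp5g3 and Sdhc and the lowest of Sdhb and Cox5a.

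Between the labelled genotypes no member passed the test. Of the 99 probes, 0 had an adjusted p under 0.05 in limma (0% of all 13479 probes tested), and the lowest adjusted p of a member was 0.795. Without adjustment, 0 member probes and 44 of all probes had p under 0.05. In 0 of the 71 genes did the 4 libraries of 1 label lie all above or all below the other 4, and 1.12% of all 7982 genes did so. The median log2 fold change of the 71 genes was 0.040, with 41 values above 0 and 30 below. Over all 7982 genes tested the median was -0.038, with 3464 values above 0 and 4518 below. The 95% interval, before adjustment, reached a median of 0.39 on either side of a member's value. It was narrowest for Cox4i1, from -0.17 to 0.28, and widest for Ndufc2, from -0.48 to 2.05. Without WT 4 the members' median was -0.015, 24 of the 71 values changed sign and the lowest adjusted p was 1.00. The median standard error then was 0.11, against 0.17 with WT 4.

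By complex, the medians lay close to 0. Complex I had a median of 0.051, with 23 values above 0 and 10 below. Complex II had -0.10 over 3 genes, complex III -0.013 over 7, complex IV 0.054 over 11, and complex V -0.0076 over 16, with 8 values on each side. Without WT 4 these were 0.0070, 0.039, -0.025, 0.0076 and -0.037. The range over all members was -0.32 to 0.79 with WT 4, and -0.19 to 0.20 without it.

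**Figure D2:**
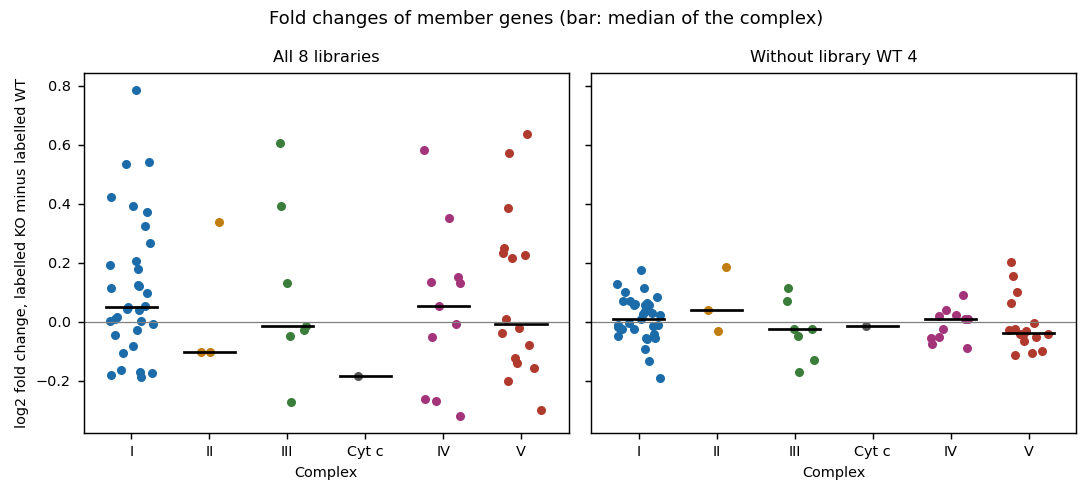
Log2 fold change of each of the 71 member genes, libraries labelled KO minus libraries labelled WT, by complex, with all 8 libraries (left) and without WT 4 (right), points for genes and bars for medians. Values reach from -0.32 to 0.79 on the left and from -0.19 to 0.20 on the right.

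The 6 genes of smallest p in each direction follow. None passed, and limma gave all 12 the same adjusted p, 0.795. Sdhb, the iron-sulphur subunit of complex II, read 678, 764, 830 and 502 in WT 1 to 4 and 781, 858, 929 and 860 in KO 1 to 4. Its log2 fold change was 0.34 ± 0.17 (SE), and 0.19 ± 0.11 without WT 4, which held the lowest value. Its other bright probe was at 0.26, and at 0.056 without WT 4. Atp5h, subunit d of the ATP synthase stalk, read 1094, 1133, 1435 and 1114 in WT 1 to 4 and 1362, 1580, 1262 and 1372 in KO 1 to 4. WT 3 lay within the range of the libraries labelled KO, and the other 3 labelled WT lay below it. Its log2 fold change was 0.23 ± 0.14 (SE), and 0.20 ± 0.13 without WT 4, the highest of the members without that library.

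For the other 4 genes with values above 0, 1 library set the size. Uqcrc1, a core protein of complex III, read 868, 1096, 1064 and 478 in WT 1 to 4 and 1049 to 1128 in KO 1 to 4, with a log2 fold change of 0.39 ± 0.25 (SE). Atp5d, the delta subunit of ATP synthase, read 277 in WT 4 and between 892 and 1103 elsewhere, and was at 0.57 ± 0.40 (SE). Ndufa2, of the arm of complex I that binds NADH, read 720 against 2267 to 2862, and was at 0.54 ± 0.39 (SE). Ndufc2, of its membrane arm, was at 0.79 ± 0.56 (SE). Without WT 4 these 4 were at 0.11, 0.10, 0.085 and 0.11.

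Of the 6 with values below 0, all but Ndufs6 were highest in WT 4, and Ndufs6 did not come nearer to 0 without it. Cox7a2, the common isoform of subunit VIIa, read 638, 468, 575 and 1039 in WT 1 to 4 and 555, 563, 491 and 491 in KO 1 to 4, with a log2 fold change of -0.32 ± 0.23 (SE). Its highest value was in WT 4, and the other 7 libraries overlapped between the labels. Uqcrq, a small complex III subunit, read 183, 137, 137 and 193 against 150, 139, 117 and 143, and was at -0.27 ± 0.18 (SE). Cox6a2, the muscle isoform of subunit VIa, averaged 185 ± 47.0 (SD, n = 4) against 155 ± 14.4 (SD, n = 4), and was at -0.26 ± 0.19 (SE). Atp5g3, a gene for the c-ring subunit, read 11252 ± 1500 (SD, n = 4) against 9774 ± 1236 (SD, n = 4), and was at -0.20 ± 0.14 (SE). Ndufs6, which was at -0.17 ± 0.16 (SE), and Ndufv1, the NADH-binding subunit of complex I, at -0.17 ± 0.14 (SE), followed. Without WT 4 the values were -0.088 for Cox7a2, -0.17 for Uqcrq, -0.078 for Cox6a2, -0.11 for Atp5g3, -0.19 for Ndufs6 and -0.059 for Ndufv1.

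Member genes moved far from the other libraries in WT 4 and in no other library. In WT 4, 28 of the 99 member probes (28.3%) differed over 2-fold from the other libraries' mean, 26 of them lower and 2 higher, where 19.4% of all probes did. In each of the other 7 libraries 0 of the 99 did. By gene, 17 of the 71 members (23.9%) were more than 2-fold lower in WT 4, against 10.7% of all genes tested, and 1 (1.41%) was higher, against 6.38%. The 17 were 8 of 33 in complex I, 2 of 7 in complex III, 2 of 11 in complex IV and 5 of 16 in complex V, and the 1 was Atp5md. Members were brighter than all genes tested, with a median of gene means of 1294 against 289, and the offset pulls changes of dim probes toward 0. The shares were not matched for brightness. Whether the gap between members and all genes exceeds chance was not tested.

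**Figure D3:**
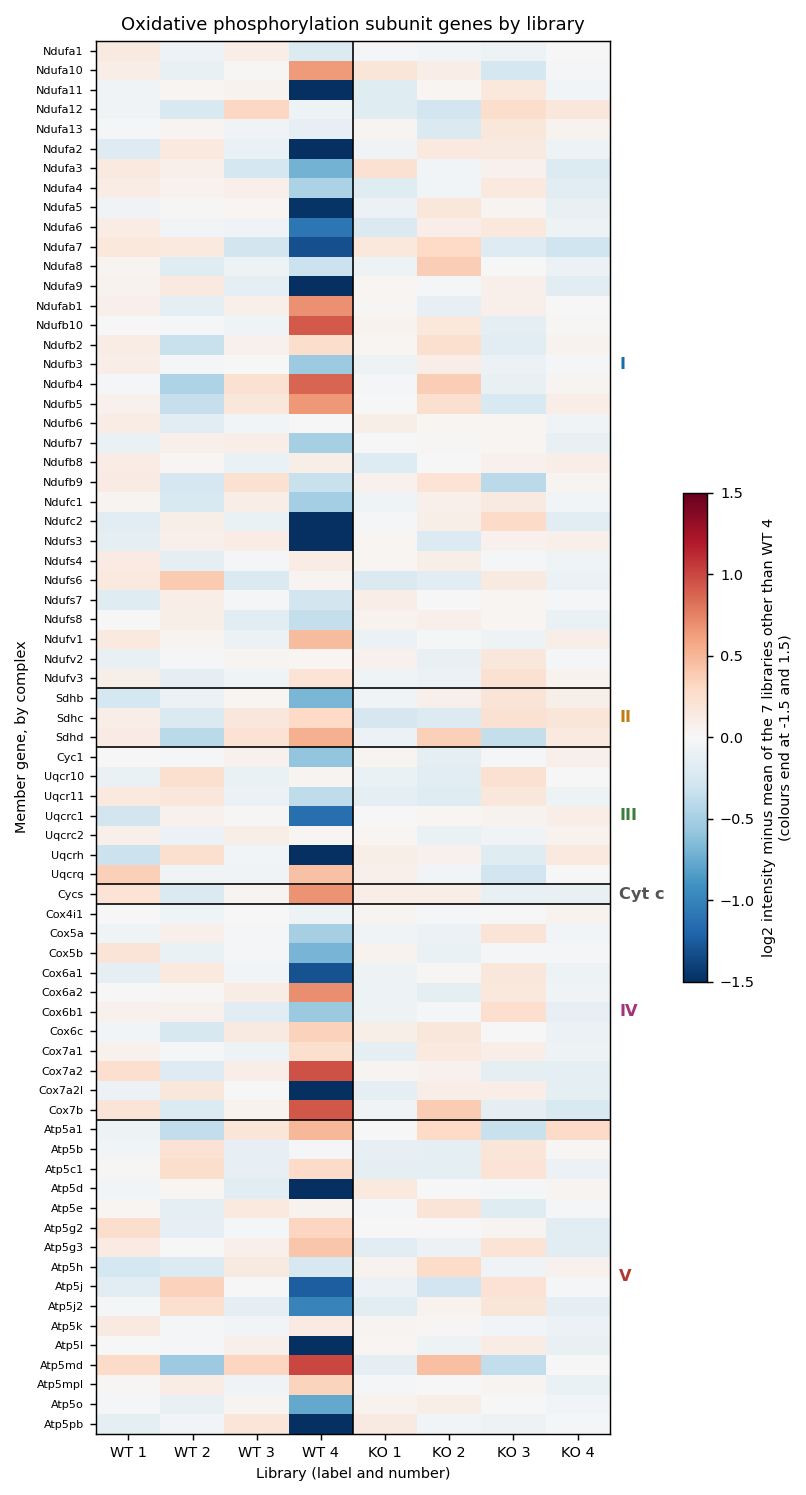
Log2 intensity of the 71 member genes (rows, by complex) in the 8 libraries (columns), minus the mean of the 7 libraries other than WT 4, with colours that end at -1.5 and 1.5. The WT 4 column holds both the deepest lower values (Ndufc2, Atp5pb, Cox7a2l) and the highest (Atp5md, Cox7b, Cox7a2), while the other columns stay pale.

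The 6 members farthest below the others in WT 4 came from 4 complexes. Ndufc2 read 94.9 in WT 4 and 455 to 627 in the other 7, a log2 distance of -2.76 from their mean. Atp5pb, subunit b of the ATP synthase stalk, read 195 against 947 to 1180 (-2.56), and Cox7a2l read 146 against 653 to 816 (-2.51). The next were Ndufs3, a core subunit of complex I, at -2.22, Uqcrh, the hinge protein of complex III, at -2.17, and Atp5d at -1.94. The 6 farthest above the others were nearer to them. Atp5md, a small membrane subunit of ATP synthase, read 623 against 215 to 426 (1.06), Cox7b 632 against 283 to 432 (0.98) and Cox7a2 1039 against 468 to 638 (0.98). Ndufb10 was at 0.95, Ndufb4 at 0.93 and Cox6a2 at 0.79. Cycs, cytochrome c itself, was at 0.68, with 2223 in WT 4 against 1202 to 1601.

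Probes of the same gene did not always move together in WT 4. Of the 23 members with several probes above the minimum, 9 (39.1%) had probes whose distances from the other libraries lay more than 2-fold apart, as in 38.2% of the 2763 such genes on the array. In each of the other 7 libraries 0 of the 23 did. For Atp5pb, 2 probes read 195 and 107 in WT 4 against 947 to 1180 and 503 to 640 in the other 7, and the third read 351 against 185 to 230. For Ndufc2 1 probe lay at -2.76, farthest below of the members, and the other read 204 against 120 to 150. Ndufab1, the mitochondrial acyl carrier protein, had 4 probes at log2 distances from -1.69 to 0.69. Ndufs4, an accessory subunit of complex I, had 4 from -1.73 to 0.61. In Atp5pb, Ndufc2, Ndufab1 and Ndufs4 the lower reading in WT 4 was therefore not shared by all probes. The same held for Atp5l (-1.63 and 0.25) and Ndufs6 (-1.63 and 0.040). The rest of the 9 were lower on both probes, by different amounts: Cox5b (-2.32 and -0.71), Cox6b1 (-1.84 and -0.57) and Ndufa8 (-2.01 and -0.33). Outside the 9, the 2 probes of Cox6a1 read 846 and 618 in WT 4 against 1893 to 2355 and 1435 to 1742. Those of Ndufb10 and of Cycs were all higher.

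**Figure D4:**
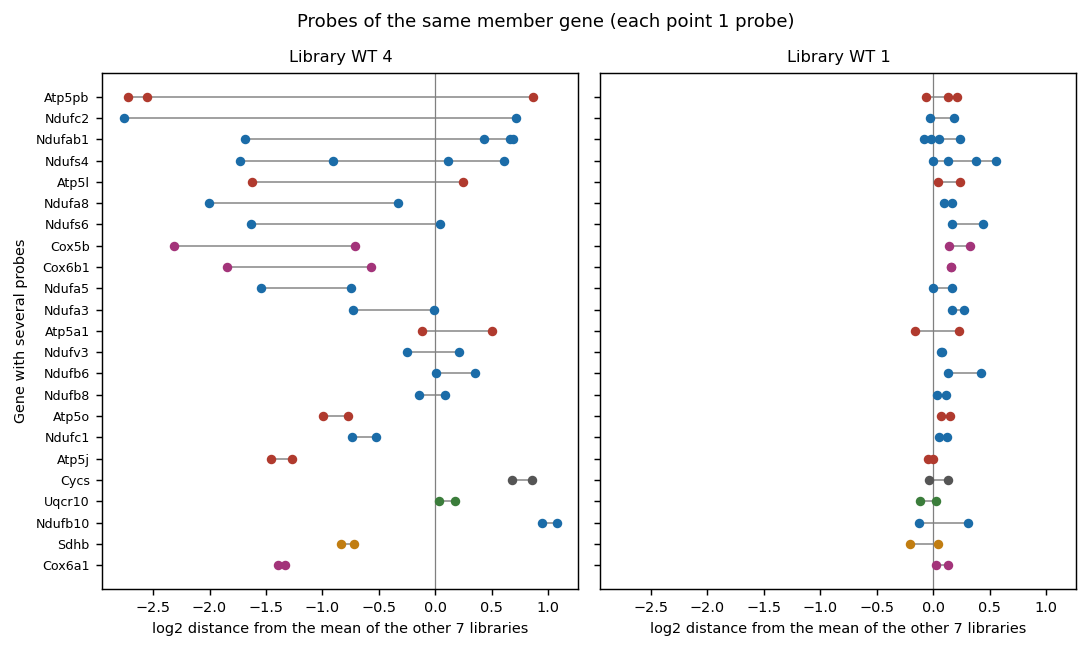
Log2 distance of each probe from the mean of the other 7 libraries for the 23 member genes with several probes, in WT 4 (left) and in WT 1 (right) as an example of the other libraries. Lines join probes of 1 gene, and in WT 4 those of Atp5pb and Ndufc2 span both sides of 0 while in WT 1 all points lie near 0.

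In 6 members the disagreement reached the comparison of labels, with probes on both sides of 0 and more than 0.2 apart. For Atp5pb the log2 fold changes of the probes ran from -0.24 to 0.76, for Ndufc2 from -0.16 to 0.79 and for Ndufab1 from -0.20 to 0.57. For Atp5l, subunit g of ATP synthase, they ran from -0.094 to 0.38, for Ndufs4 from -0.12 to 0.37 and for Ndufs6 from -0.17 to 0.31. Without WT 4 these ranges were -0.026 to 0.092, 0.022 to 0.11, -0.042 to 0.17, -0.039 to -0.025, -0.11 to 0.043 and -0.19 to -0.11. What sets WT 4 apart was not tested.

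Over the other 7 libraries most members were level. In 59 of the 71 genes (83.1%) the highest of the 7 values was less than 1.5 times the lowest, as in 81.8% of all genes. The median SD of the log2 values was 0.13 for the members and 0.15 for all genes. The 12 wider genes included Atp5md, which read 382, 215 and 390 in WT 1 to 3 and 282, 426, 241 and 312 in KO 1 to 4. Its highest value was 1.99 times its lowest, and WT 2 and KO 3 were the lowest under their labels. Ndufb4, Sdhd, a membrane anchor of complex II, and Atp5a1, the alpha subunit of ATP synthase, were also lowest in WT 2, with ranges of 1.78-fold, 1.70-fold and 1.60-fold. Sdhd read 662, 457 and 704 in WT 1 to 3 and 571, 778, 474 and 670 in KO 1 to 4, so that the low libraries again came from both labels. Among the 7 libraries WT 2 held the lowest value of 29 of the 99 member probes (29.3%), against 17.5% of all probes, and the highest values fell most often in KO 3, with 22 (22.2%, against 20.2%), KO 2, with 21 (21.2%, against 12.7%), and WT 1, with 20 (20.2%, against 19.2%).

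A few members parted the libraries by number, as Vav1 did, and were chosen for description after their values were seen. Libraries numbered 1 and 2 of both labels did not overlap those numbered 3 and 4 in 2 of the 71 members, Ndufa7 and Sdhc, and in 7.82% of all genes. Leaving out WT 4, this held for 4 members, the others being Ndufa12 and Atp5k, and for 14.5% of all genes. The members' shares were thus not above those of all genes. Ndufa7, an accessory subunit of complex I, read 1324 and 1320 in WT 1 and WT 2 and 1330 and 1464 in KO 1 and KO 2. It read 982 and 479 in WT 3 and WT 4 and 1044 and 969 in KO 3 and KO 4. Without WT 4, a gap of 1.27 times separated the high values from the low ones. Ndufa12, another accessory subunit, went the other way, with 559 to 655 in the libraries numbered 1 and 2 and 763 to 842 in WT 3, KO 3 and KO 4, a gap of 1.16 times. WT 4 read 645 and did not follow. Sdhc, another membrane anchor of complex II, read 1249 to 1602 against 1679 to 1830, a gap of 1.05 times.

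In the RefSeq annotation, Ndufa7 and Ndufa12 each share a chromosome with genes that parted the libraries more widely. Ndufa7 is on chromosome 17, with 8 protein-coding genes between it and Myo1f and 29 between it and H2-Aa. Myo1f, a leukocyte myosin, read 3257 to 5391 where the number was 1 or 2 and 505 to 823 where it was 3 or 4, the same direction as Ndufa7. Vav1 is on the same chromosome, with 426 protein-coding genes between. Ndufa12 is on chromosome 10, with 9 protein-coding genes between it and Hal, which encodes histidine ammonia lyase. Hal read 91.5 to 101 in the libraries numbered 1 and 2 and 2862 to 3815 in those numbered 3 and 4, the same direction as Ndufa12. Of the genes between Ndufa7 and Myo1f, 6 were tested and 2 parted the 8 libraries by number, against 7.82% of all genes. Between Ndufa7 and H2-Aa 7 of 22 did, between Ndufa7 and Vav1 31 of 170, and between Ndufa12 and Hal 1 of 5. The stretches of chromosome 17 were each counted on their own and can share genes. Without WT 4 these counts were 3 of 6, 9 of 22, 45 of 170 and 2 of 5, against 14.5% of all genes. Whether position has a part in these values was not tested.

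**Figure D5:**
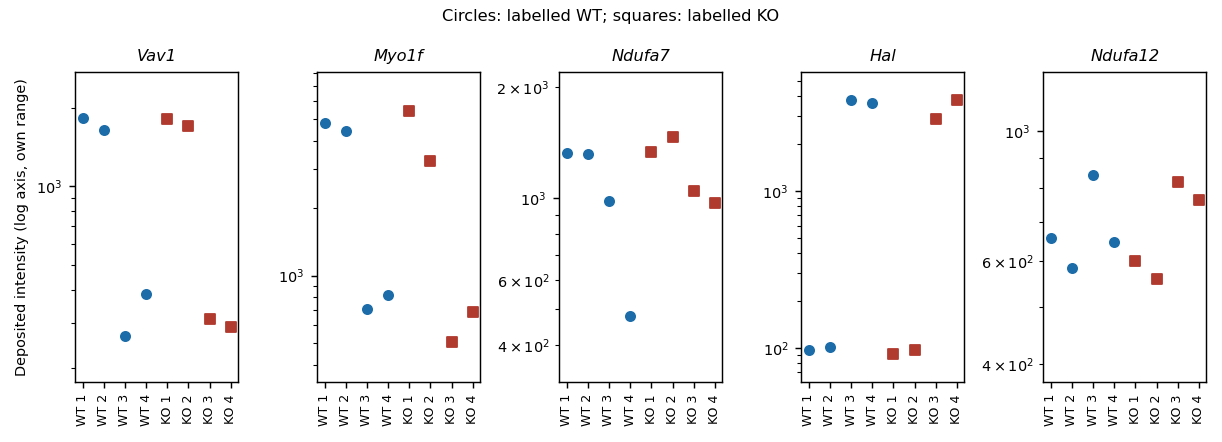
Deposited intensity (log axis, own range for each gene) of Vav1, Myo1f, Ndufa7, Hal and Ndufa12 in the 8 libraries, circles for the libraries labelled WT and squares for those labelled KO. Vav1, Myo1f and Ndufa7 are higher in WT 1, WT 2, KO 1 and KO 2 than in the rest, and Hal and Ndufa12 are lower there, apart from Ndufa12 in WT 4.

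Other genes of the pathway did not pass either. Of 44 listed assembly factors, which build the complexes without staying in them, 37 were tested, 0 rose and 0 fell in limma, and the median log2 fold change was -0.041, and 0.0031 without WT 4. Uqcc2, an assembly factor of complex III, read 2148 ± 185 (SD, n = 4) in the libraries labelled WT and 2081 ± 173 (SD, n = 4) in those labelled KO. Coa5, needed for complex IV, read 1692 ± 79.3 (SD, n = 4) and 1506 ± 125 (SD, n = 4), and its limma log2 fold change, -0.17, had adjusted p = 0.795. Of 15 tested genes of the citric acid cycle and pyruvate dehydrogenase, which feed the chain with NADH and succinate, 0 passed, with a median of 0.0067, and 0.058 without WT 4. Suclg1, a succinyl-CoA ligase subunit, read 2564 ± 222 (SD, n = 4) and 2353 ± 186 (SD, n = 4). Of 13 tested genes of mitochondrial carriers, import and the inner membrane 0 passed, with a median of 0.034, and 0.046 without WT 4. Atpif1, the inhibitor of ATP synthase running in reverse, read 11313 ± 1216 (SD, n = 4) and 10703 ± 454 (SD, n = 4), and Slc25a5, an ADP and ATP carrier, 7291 ± 675 (SD, n = 4) and 6999 ± 751 (SD, n = 4).

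Of 14 tested regulators of mitochondrial biogenesis 0 passed, with a median of -0.10, and -0.012 without WT 4. The brightest of them were Mterf3, a regulator of mitochondrial transcription, at 389 to 642, and Polrmt, the mitochondrial RNA polymerase, at 376 to 615, both highest in WT 4. Nrf1 and Gabpa, whose products are among the factors whose cores were searched above, were on the list. Nrf1 read 292, 281, 239 and 479 in WT 1 to 4 and 216, 252, 327 and 249 in KO 1 to 4, with WT 4 again the highest. Gabpa read 91.2 in WT 4 and 113 to 142 in the other 7. Tfam, which packs and transcribes mitochondrial DNA, read 96.1 in WT 4 and 227 to 257 in the other 7.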

How the data were processed

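Per the labels' protocols, total RNA was extracted with Trizol, cleaned on columns and labelled with biotin for Illumina beadchips. The authors deposited probe intensity on a linear scale for 45281 probes and 8 arrays, with the same sorted values in every column, as after quantile normalization. The software and the treatment of background were not stated in the sources used here. A table with 16 per-sample columns named by no label was not used, so normexp and an intensity minimum replaced the planned neqc.

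Normexp background correction with an offset of 50 came before the log2 scale (R 4.3.3, limma 3.58.1). The offset pulls changes of dim probes toward 0. Probes of at least 100 on at least 4 arrays were kept (13479 probes, 7982 genes). Each gene is its brightest kept probe. Libraries were grouped by title and tested with lmFit and eBayes, with Benjamini-Hochberg adjustment over all kept probes at 0.05. Symbols come from the platform annotation (34885 probes with 1 symbol, 18 with several, 10378 with none). With 4 arrays a label, their number limits the precision. Alternatives covered the offset, correction, filter, centring, variance model, array weights, replicate block, gene representative and each library left out. Named were the 6 members with the smallest p in each direction, the 2 brightest of each complex, the 6 farthest in each direction in WT 4, isoform groups, members with disagreeing probes, and the brightest genes of each list; other names were chosen after their values were seen. The members and lists were chosen with earlier results of these data known. Python 3.11.15 and matplotlib 3.10.9 were used for the remaining steps.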

Additional observations from a re-analysis of the deposited data

Results flagged for a closer look

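The groups of 4 values examined numbered 76, for 38 member genes named with values. In 6 flagged groups, the gap between the highest or lowest library and the nearest of the others exceeded Dixon's 95% critical value. Chance gives about 1 in 20 groups, a rate that does not hold for genes named for their distance in WT 4, as Ndufb10 and Cox6a2 were. In WT 4, Ndufb10 was high at 1100 (nearest labelled WT 584), Cox6a2 was high at 255 (nearest 170), and Ndufa4 was low at 2748 (nearest 3930). The 6 leave out Atp5l, which read 1101 in WT 4 with the nearest labelled WT at 3281 and the highest at 3521. Its gap also exceeds the critical value, so the 6 are not a full count for the members. WT 3 was high for Atp5h at 1435 (nearest 1133). KO 3 was high for Cox5a at 6252 (nearest 5340), and KO 2 was low for Ndufs3 at 851 (nearest 1003).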

How the results depend on the processing

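In limma, 0 probes and 0 member probes passed the adjusted threshold under every alternative run: an offset of 16, no background correction, 3 other filters, median centring, a trended and robust variance, array weights, the replicate block and each library left out. Probes with an unadjusted p under 0.05 numbered 44, and 938 with no filter, 14 with a minimum of 200, 172 with array weights, and 9 to 549 with 1 library left out. Among members there were 0, and at most 3 with a library left out, when that was WT 3. The median of all members, 0.040, was -0.014 with array weights and -0.016 to 0.057 with 1 library left out. Here each gene's brightest probe was chosen again from the libraries left, whereas the values without WT 4 given earlier keep the probe. On this basis, complex I ran from -0.0046 to 0.10, complex II from -0.20 to 0.039 and complex III from -0.039 to 0.057. Complex III was 0.059 and complex V 0.0082 with a minimum of 200, and complex V 0.0062 with the mean of a gene's probes. The median of complex IV, 0.054, was 0.13 with a minimum of 200 and -0.022 with array weights. That of complex V, -0.0076, was -0.037 to 0.080 with 1 library left out, the latter without KO 3. Single genes that changed sign were Ndufc2 at -0.16 with the minimum required on all 8 arrays, Ndufs6 at 0.070, Ndufab1 at 0.021 and Ndufs4 at 0.093 with the mean of a gene's probes, and Atp5l at -0.017 with array weights. With 1 library left out, Atp5l lay between -0.025 and 0.54, Atp5pb between -0.0047 and 0.91, and Ndufs4 between -0.061 and 0.028. The cause of these changes was not tested. The percentage of member probes over 2-fold off in WT 4 was 22.4 to 33.3 under the other settings, and 26.3 to 30.3 with 1 library left out.

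Whether the numbers in the titles pair the libraries is not stated. Same-numbered libraries of the labels correlated at -0.17 to 0.46 in their deviations from the label's mean. Of the 4 labelled WT, 1 correlated best with its own number. WT 4 enters the mean of its label and so every deviation of the libraries labelled WT, so this check cannot exclude a pairing. With the number as a replicate block, the adjusted threshold was passed by 0 probes and an unadjusted 0.05 by 27. Values from the other deposited table were not run, since its columns match no label. Probes near the bulk of dim probes limit what can be read for 9 members.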
